A study of Homo sapiens with 4 samples.

Results

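The 10 genes described here encode transcription factors and partners that switch the cell cycle programme on and off: E2F1, E2F2, E2F3, E2F7, E2F8, FOXM1, MYBL2, TFDP1, LIN9 and LIN54. They were taken by symbol, with every probe set annotated to exactly 1 of them, which gave 29 probe sets out of 49293 cellular probe sets and 10 genes out of 18244. No probe set shared between a member and another gene was found in the annotation. The RNA came from the human neuroblastoma line Kelly, which has MYCN amplification and mutant ALK, in a derivative that resists the ALK inhibitor TAE684 and was grown in 1 µM of it throughout. Virus delivered a short hairpin over 24 h, aimed at BORIS in the shBORIS group and at luciferase in the shLUC control group, and puromycin then killed uninfected cells over 48 h, so both groups share the drug, the infection and the selection. BORIS is the product of CTCFL, a germ-line paralog of the genome-folding factor CTCF. Each group had 2 arrays, called biological duplicates in the labels, and 1 hairpin against BORIS is named, so effects of that hairpin on other genes cannot be told apart from those of reduced BORIS.

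E2F factors bind DNA together with a DP partner such as TFDP1, and they drive the genes of DNA replication when the retinoblastoma protein RB releases them. E2F1, E2F2 and E2F3 are the activators, whereas E2F7 and E2F8 bind DNA without a DP partner and repress many of the same genes late in S phase. LIN9 and LIN54 belong to the MuvB core complex, which joins the pocket proteins and E2F4 in quiescent cells to repress cell cycle genes (the DREAM complex) and joins MYBL2 (B-Myb) in cycling cells to activate the genes of G2 and mitosis. FOXM1 is then recruited to the same late genes. In MYCN-amplified neuroblastoma this programme is known to be highly active.

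Several of these genes are known to be E2F targets themselves, and 4 promoters are given here because 2 belong to members that rose by more than the median gene (E2F1 and MYBL2) and 2 to members whose brightest probe set did not pass that test (E2F2 and TFDP1). Sequences are RefSeq, build GRCh38.p14, the 250 bases before the annotated start, 5′ to 3′ on the gene's strand; they lie at chr20:33686386-33686635 on the minus strand for E2F1, chr20:43666864-43667113 on the plus strand for MYBL2, chr1:23531234-23531483 on the minus strand for E2F2 and chr13:113584503-113584752 on the plus strand for TFDP1. Capitals mark matches, on either strand, to the E2F motif TTTNNCGC or to the shorter TTGGCG, which overlaps the first and was added after the MYBL2 sequence had been read.
E2F1: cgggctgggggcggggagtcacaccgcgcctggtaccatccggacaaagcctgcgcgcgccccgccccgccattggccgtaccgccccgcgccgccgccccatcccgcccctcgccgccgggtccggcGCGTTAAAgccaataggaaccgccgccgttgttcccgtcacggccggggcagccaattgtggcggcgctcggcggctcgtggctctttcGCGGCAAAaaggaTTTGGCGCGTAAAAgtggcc
MYBL2: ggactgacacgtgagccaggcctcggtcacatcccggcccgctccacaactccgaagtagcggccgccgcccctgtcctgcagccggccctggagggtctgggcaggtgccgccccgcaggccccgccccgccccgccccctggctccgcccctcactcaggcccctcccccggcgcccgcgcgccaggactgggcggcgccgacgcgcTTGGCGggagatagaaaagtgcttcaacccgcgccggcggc
E2F2: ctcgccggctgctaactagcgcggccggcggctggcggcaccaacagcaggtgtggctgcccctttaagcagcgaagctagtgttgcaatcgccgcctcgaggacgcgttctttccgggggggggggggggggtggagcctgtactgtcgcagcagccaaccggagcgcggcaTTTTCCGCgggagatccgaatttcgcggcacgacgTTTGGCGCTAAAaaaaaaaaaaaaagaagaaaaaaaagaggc
TFDP1: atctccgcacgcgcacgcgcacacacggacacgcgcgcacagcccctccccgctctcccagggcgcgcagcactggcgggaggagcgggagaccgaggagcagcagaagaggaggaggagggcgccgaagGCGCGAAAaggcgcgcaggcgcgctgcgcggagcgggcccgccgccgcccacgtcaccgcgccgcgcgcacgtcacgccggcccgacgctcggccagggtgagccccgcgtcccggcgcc
In the E2F1 window the search found 4 matches to TTTNNCGC and 1 to TTGGCG, in E2F2 it found 3 and 1, in TFDP1 1 and 0, and in MYBL2 0 and 1. The search covered 300 bases (250 before and 50 after the start) for the 8 members that the table holds, with several starts for E2F3, LIN9 and LIN54. At least 1 of the 2 motifs was present in 8 of the members' 12 windows, which belong to 7 of the 8 genes (all but LIN9), against 14.4% of the 35116 promoter windows in the table (6.89% for TTTNNCGC and 8.92% for TTGGCG). TTTNNCGC alone was present for 4 of the 8 genes. MYBL2, E2F7 and LIN54 count only through TTGGCG, which was added after MYBL2 was read, so the count of 8 is no independent evidence. The LIN54 windows also overlap and share their matches. The CHR motif TTTGAA, the element that LIN54 recognises, was found for E2F3, LIN9 and LIN54, and it is present in 15.2% of all windows. A match describes letters and does not show binding. Matches lay both in members that were higher and in members that were not.

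The arrays report probe set intensity, on a linear scale as deposited. Spike-in ERCC probe sets had medians of 24.4 to 25.8 on the 4 arrays, whereas the median cellular probe set was 80.8 and 84.5 with shBORIS and 64.4 and 60.4 with shLUC. Every change is therefore given on 2 scales: as deposited, where the median gene was 0.48 higher with shBORIS on the log2 scale, and after centring, that is, after the median over the genes tested was subtracted on each array, so that a value is relative to the median gene. Differences are of log2(intensity + 16), which understates changes of dim genes, and a call is a limma adjusted p under 0.05 over all 10946 genes tested. As deposited, limma's prior degrees of freedom were infinite, so those p-values use the spread fitted over all genes in place of each gene's own, and a shift shared by all genes of an array enters each of them: very small p-values there are not literal. The targeted gene CTCFL read 701 and 737 with shBORIS and 3563 and 3376 with shLUC, a difference of -2.25 as deposited and -2.72 after centring (SE 0.05; limma adjusted p = 7.89e-10). Log2 intensities of duplicate arrays correlated across genes at 0.997 with shBORIS and 0.996 with shLUC. The identity of the cells was checked by markers. MYCN read 5727 and 6041 with shBORIS and 5347 and 5280 with shLUC, and HAND2 5459 and 5607 against 5047 and 4833. Not every marker was so even: PHOX2A was lower, at 1072 and 1177 against 1281 and 1249. CHGA was far higher, at 6272 and 6239 against 2292 and 1974. Of the adrenergic neuroblastoma markers, 9 of 9 measured, these among them, lay above the intensity filter, as 10946 of all 18244 genes did. Of 21 measured markers of glia, fibroblasts, endothelium, immune cells and epithelium 5 did (GFAP, COL1A1, PDGFRB, VWF and CD68). The summed intensity of the 21 was 1526 and 1616 with shBORIS against 1693 and 1669 with shLUC. Without COL1A1, left out after its values were seen, it was 1075 and 1101 against 964 and 889, higher with shBORIS as the median gene was. PTPRC lay between 10.8 and 15.9 on the 4 arrays, and the part of other cells in the results below was not tested. The 3′ to 5′ ratio of ACTB, a measure of RNA integrity, was 1.36 and 1.32 with shBORIS and 1.46 and 1.38 with shLUC. That of GAPDH was 0.999 and 0.974 with shBORIS and 0.994 and 0.950 with shLUC, where the groups overlap. The part of RNA integrity in the results was not tested either.

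All 10 regulators were higher in shBORIS cells as deposited (6 after quantile normalization), and 6 of them were also higher after centring: FOXM1, E2F8, E2F7, MYBL2, E2F1 and LIN9. None fell on either scale in the test of the brightest probe set. As deposited 77.2% of all genes tested were called higher and 4.64% lower, so 10 of 10 has a background that is itself high. After centring 30.3% of genes were higher and 28.8% lower, against 6 and 0 of the 10 members, whose median difference was 0.46 where that of all genes was 0.001. The filter was set on the mean of the 4 arrays and left no member untested, but E2F8 and LIN9 passed it only through shBORIS, where they are high, since their shLUC means lay under the filter's intensity of 62.2. Counted after the values were seen, 4 of the 8 members above that intensity in both groups were higher after centring and 0 lower, where 31.2% and 29.2% of such genes were. With each array left out in turn, the difference after centring ranged from 1.121 to 1.135 for FOXM1 and from -0.051 to 0.031 for E2F3. With no filter 8 members were higher, E2F2 and LIN54 among them, and 0 lower. Of all 18244 genes, 4733 were then higher and 5053 lower. The median subtracted then came from all genes, and each member read higher by a like amount (FOXM1 1.243, E2F2 0.197, LIN54 0.36). In RNA from whole cultures, more cells in the phase that makes a transcript and more transcript per cell cannot be told apart.

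**Figure D1:**
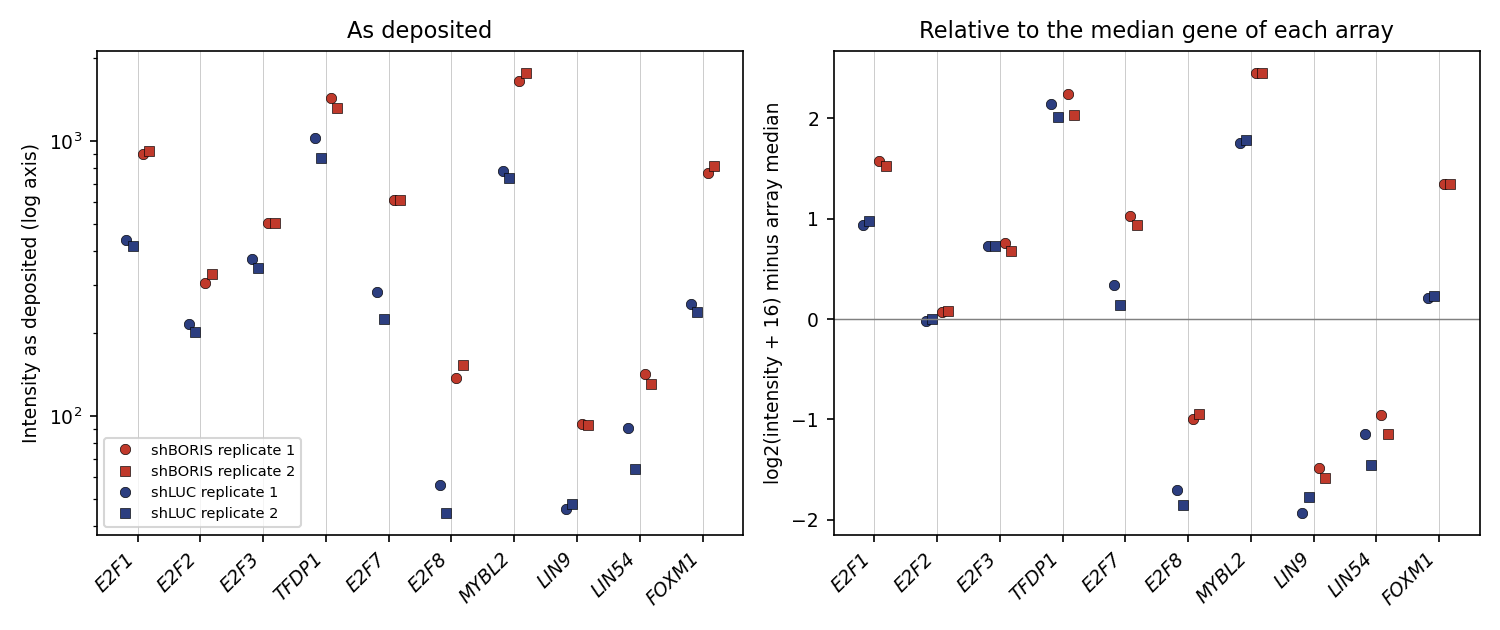
Level of each of the 10 genes on each array, by its brightest probe set: intensity as deposited on a log axis (left) and log2(intensity + 16) minus the array's median over genes tested (right). Red points are the 2 shBORIS arrays and blue points the 2 shLUC arrays. As deposited the groups are apart for each gene, but there the median gene was itself 0.48 higher with shBORIS. On the right those of E2F3, TFDP1 and LIN54 overlap. The share of all genes with groups apart was not counted on either scale.

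FOXM1, the forkhead factor that activates mitotic genes, had the largest difference of the members. Its brightest probe set read 764 and 812 with shBORIS and 257 and 240.1 with shLUC. Both shBORIS arrays were far above both shLUC arrays, at 3.04-fold as deposited and 2.19-fold after centring (log2 1.13, SE 0.06; limma adjusted p = 4.3e-07). That difference ranked 15 among the 10946 genes tested. The other two FOXM1 probe sets read 541 and 560 against 205 and 201, and 526 and 559 against 174 and 179. They differed by 0.89 and 1.06 after centring (SE 0.07 for each; limma adjusted p = 3.18e-07 and 1.32e-07 over all probe sets), so the gene's 3 probe sets were all higher.

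MYBL2, the B-Myb factor that turns the MuvB core into an activator, has 1 probe set on the array. Its intensity was 1658 and 1773 with shBORIS and 782 and 736 with shLUC. The groups were well apart, at 2.24-fold as deposited and 1.61-fold after centring (log2 0.68, SE 0.05; limma adjusted p = 3.31e-06). With a single probe set, no second measurement of the transcript was at hand.

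The MuvB subunits had smaller differences. LIN9, the scaffold of the core, read 93.9 and 93.3 with shBORIS and 46.0 and 48.0 with shLUC. This dim gene was higher by 0.80 as deposited and by 0.32 after centring (SE 0.09; limma adjusted p = 0.0134). It passed the filter only through shBORIS, so its count among the higher members supports nothing. The call after centring was lost without shBORIS replicate 1 (limma adjusted p = 0.0598) and without shLUC replicate 1 (limma adjusted p = 0.0933). It was also lost with a pseudocount of 64 (difference 0.10, limma adjusted p = 0.201) and with the mean of the gene's probe sets (0.13, limma adjusted p = 0.117). The other two LIN9 probe sets were below the filter, between 19.0 and 49.8 on the 4 arrays, and read 0.19 and -0.26 after centring, neither past the threshold.

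LIN54, the subunit that contacts DNA, did not pass after centring. Its brightest probe set read 142 and 131 with shBORIS and 90.7 and 64.3 with shLUC. Its shLUC arrays lay further apart, on the log2 scale after centring, than those of any other member, and the difference was 0.72 as deposited but 0.25 after centring (SE 0.11; limma adjusted p = 0.0807). Without shLUC replicate 1 it was 0.40 (limma adjusted p = 0.0083), and without shBORIS replicate 2 it was 0.34 (limma adjusted p = 0.0203); with no filter it was 0.36 (limma adjusted p = 0.0168). The 5 dimmer LIN54 probe sets ranged from -0.21 to 0.26 after centring, and none passed.

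Among the activator E2Fs, E2F1 was the one whose brightest probe set passed on both scales. E2F1, the activator most tightly tied to RB, read 896 and 922 with shBORIS and 437 and 414 with shLUC. The 2 groups were clearly apart, at 2.10-fold as deposited and 1.51-fold after centring (log2 0.59, SE 0.06; limma adjusted p = 1.33e-05). It too has 1 probe set. E2F2 read 305 and 328 against 217 and 203, higher by 0.56 as deposited (SE 0.11; limma adjusted p = 7.17e-07) and 0.08 after centring (SE 0.06; limma adjusted p = 0.273). Its arrays did not overlap on either scale, but the centred gap was small. The call after centring depended on the processing: it was 0.20 with no filter (limma adjusted p = 0.0221) and -0.23 with the mean of its probe sets (limma adjusted p = 0.03). A dimmer E2F2 probe set, under the filter, read 42.1 and 72.1 with shBORIS and 59.8 and 66.1 with shLUC; the difference was -0.62 after centring (SE 0.14; limma adjusted p = 0.00257 over all probe sets) and -0.14 as deposited (limma adjusted p = 0.291), with the shBORIS arrays far from each other.

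E2F3, the third activator, passed as deposited and not after centring. Its brightest probe set read 502 and 505 with shBORIS and 373 and 347 with shLUC, higher by 0.47 as deposited (SE 0.11; limma adjusted p = 6.45e-05) with a difference of -0.01 after centring (SE 0.06; limma adjusted p = 0.894). The groups did not overlap as deposited and overlapped once the arrays were centred. Its other probe sets read 0.16 and 0.01 after centring, neither past the threshold (limma adjusted p = 0.0706 and 0.883 over all probe sets). After quantile normalization the brightest read -0.093. The difference between E2F1 and E2F3 was not itself tested.

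TFDP1, the DP partner of the E2Fs, gave different answers by probe set. The brightest read 1435 and 1318 with shBORIS and 1024 and 867 with shLUC, higher by 0.54 as deposited (SE 0.11; limma adjusted p = 2.88e-06) and 0.06 after centring (SE 0.07; limma adjusted p = 0.506), where its arrays overlapped, and -0.036 after quantile normalization. With the mean of its probe sets the difference after centring was 0.14 (limma adjusted p = 0.0227). The next 3 by brightness were higher after centring, by 0.35, 0.26 and 0.18 (limma adjusted p = 4.63e-04, 0.00347 and 0.0272 over all probe sets). The second, for example, read 789 and 840 against 455 and 451, with the groups well apart. The dimmest, at 45.2 and 45.1 against 41.7 and 39.0, read -0.36 after centring (limma adjusted p = 0.00807) and 0.12 as deposited (limma adjusted p = 0.398). RefSeq lists pseudogenes of both TFDP1 and E2F3, and array probes may not separate such copies from the gene, so both are uncertain.

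The atypical repressors E2F7 and E2F8 were higher on both scales. E2F7 read 609 and 611 with shBORIS and 282 and 225 with shLUC, 2.33-fold as deposited and 1.68-fold after centring (log2 0.75, SE 0.08; limma adjusted p = 2.15e-05). The shBORIS arrays were nearly equal and lay above both shLUC arrays. A second E2F7 probe set, at 108 and 113 against 71.1 and 71.5, was higher by 0.54 as deposited and 0.06 after centring (SE 0.09; limma adjusted p = 0.571 over all probe sets), so the rise after centring rests on 1 of 2 probe sets; with their mean it was 0.44.

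E2F8 was a dim transcript with shLUC, at 56.2 and 44.7, and read 138 and 154 with shBORIS. The groups were well apart, at 2.44-fold as deposited and 1.76-fold after centring (log2 0.81, SE 0.09; limma adjusted p = 2.96e-05). The shLUC values lay under the filter's intensity and the gene passed only through shBORIS, so its count among the higher members supports nothing. The size is approximate too: it was 0.47 with a pseudocount of 64 and 0.55 with the mean of its probe sets. A second probe set was also higher, by 0.50 (SE 0.09; limma adjusted p = 5.58e-04 over all probe sets), and the third, under the filter, read 0.23 (limma adjusted p = 0.0639).

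Over all 29 probe sets of the 10 genes, 12 were higher and 2 lower after centring, and 26 were higher and 0 lower as deposited. The background over the 49293 cellular probe sets was 16.4% higher and 46.2% lower after centring, and 51.8% higher and 3.22% lower as deposited. It includes dim probe sets, whereas the centring median came from the filtered genes, of which 30.3% were higher and 28.8% lower. The members' probe sets are not matched to it by level, so the contrast with 16.4% may be overstated. No filter was set here, and 9 of the 29 lay under the intensity that genes had to reach. The 2 that were lower, the dimmer of E2F2 and the dimmest of TFDP1, were both among those 9. FOXM1 was the gene with several probe sets that were all higher after centring; E2F3 and LIN54 had none that passed on that scale.

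**Figure D2:**
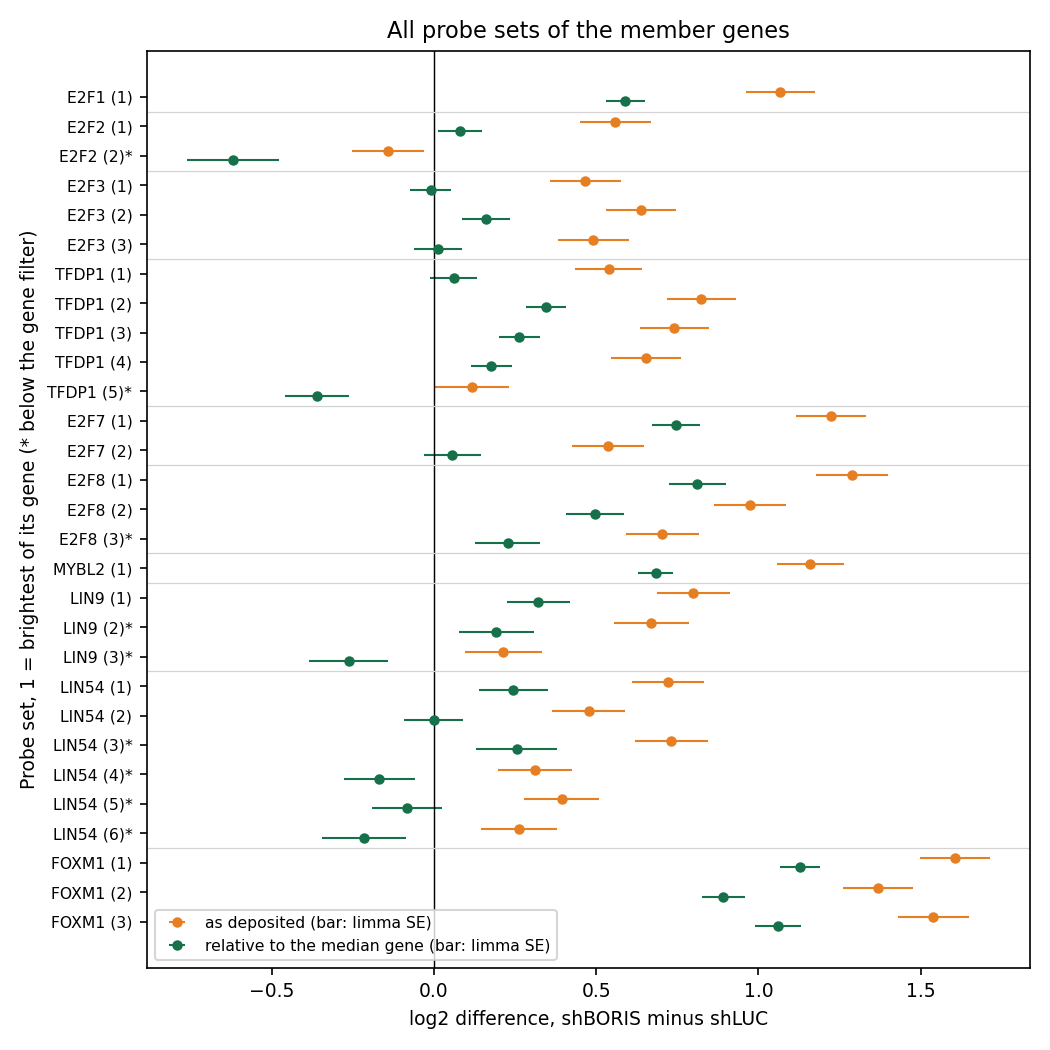
The log2 difference, shBORIS minus shLUC, for each of the 29 probe sets, numbered from the brightest within its gene, as deposited (orange) and after centring (green); bars are limma standard errors and an asterisk marks probe sets below the gene filter. The 3 FOXM1 probe sets sit between 0.89 and 1.13 in green, while those of E2F3 lie between -0.01 and 0.16.

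The list of other E2F, DP and pocket protein genes was led by a fall of E2F5. Of 7 tested, 0 were higher and 3 lower after centring, with a median of -0.16; as deposited 6 were higher and 1 lower, and 3 were higher without shLUC replicate 2. The share over all genes was 28.8% lower after centring and 77.2% higher as deposited, and with no filter 1 of these genes was higher and 1 lower after centring. E2F5, a repressor-type E2F that works with the pocket proteins, fell on both scales. It read 265 and 299 with shBORIS and 435 and 402 with shLUC, the shBORIS arrays below both others (log2 -1.03 after centring, SE 0.06; limma adjusted p = 1.1e-06; -0.55 as deposited). TFDP2, the other DP partner, and RBL2 (p130), the pocket protein of quiescent cells, fell by 0.18 and by 0.25 after centring (limma adjusted p = 0.0135 and 0.0171) but were higher by 0.29 and 0.23 as deposited. E2F4, E2F6, RB1 and RBL1 (p107) read 0.07, -0.01, -0.16 and -0.05 after centring, none past the threshold. RBL1 passed the filter only through shBORIS, so its count as deposited supports nothing. TFDP3 was under the filter and was not tested.

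Of 5 tested genes of the MuvB core and the MYB family, 1 was higher and 2 lower after centring, with a median of -0.20, and 3 were higher and 0 lower as deposited. The shares over all genes were 30.3% higher and 28.8% lower after centring, and 77.2% and 4.64% as deposited. For 5 genes, these counts lie near those shares. The histone-binding subunit RBBP4 was higher by 0.16 (limma adjusted p = 0.0144), a call lost without shBORIS replicate 1 and with the 60th percentile filter. LIN52, the subunit that switches the core between its partners, read -0.51 and MYBL1, a MYB factor of the germ line, -0.44 (limma adjusted p = 9.52e-04 and 0.00343); as deposited these were -0.03 and 0.04 and did not pass. The groups overlapped as deposited for both, since LIN52 read 199 and 266 against 241 and 229 and MYBL1 71.6 and 92.2 against 86.8 and 71.0. LIN37 and MYB read -0.002 and -0.20 after centring and did not pass, and were higher by 0.48 and 0.27 as deposited (limma adjusted p = 2.34e-05 and 0.0199).

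Of the cyclins, kinases and inhibitors upstream of RB, CCND1 had the largest rise and CDKN1C the largest fall. Of 12 tested, 5 were higher and 3 lower after centring (median 0.11), and 11 were higher and 1 lower as deposited. These counts after centring lie near the shares over all genes, 30.3% and 28.8%, and with no filter 7 were higher and 1 lower. CDKN2A, counted as higher on the deposited scale, passed the filter only through shBORIS. Cyclin D1 (CCND1), which starts RB phosphorylation, read 1860 and 2021 with shBORIS and 706 and 712 with shLUC, higher by 0.95 (SE 0.06; limma adjusted p = 1.1e-06). Cyclin E1 (CCNE1), CDK6 and CDK2 were higher by 0.85, 0.70 and 0.20. The inhibitor CDKN1B (p27) was also higher, by 0.72. CDKN1C (p57), another inhibitor, fell on both scales, from 366 and 298 to 185 and 197 (log2 -1.22, SE 0.07; limma adjusted p = 1.14e-06; -0.74 as deposited), and CDKN2D and CDKN1A fell by 0.23 and by 0.16 after centring but were higher by 0.25 and 0.31 as deposited. With each of the 4 arrays left out in turn, 4 to 6 of these genes were higher and 2 lower after centring.

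Genes known to be activated by these regulators were mostly higher. Over all genes tested, 30.3% were higher and 28.8% lower after centring, and 77.2% higher and 4.64% lower as deposited. Of 27 tested G1/S targets of E2F, 23 were higher and 0 lower after centring, with a median of 0.52, and 27 were higher as deposited (1 was lower after quantile normalization). By the smallest p, these were led by RRM2, which makes deoxynucleotides, at 1.01, the replicative helicase subunits MCM5 and MCM3 at 1.04 and 0.85 and the replicative helicase component CDC45 at 0.83 (limma adjusted p between 5.61e-07 and 2.98e-06). CHAF1A, CDC25A, MCM7 and TYMS read -0.08, -0.10, 0.06 and 0.03 and did not pass. CLSPN, among the 23, passed the filter only through shBORIS, where it is high. Of the 26 G1/S targets above the filter's intensity in both groups, 22 were higher and 0 lower after centring. Of all such genes, 31.2% were higher and 29.2% lower. Of 36 tested G2/M targets of MYBL2 and FOXM1, 32 were higher and 0 lower after centring, with a median of 0.41, and 36 were higher as deposited (2 were lower after quantile normalization). ASPM, a spindle pole protein, was higher by 1.11, the kinetochore protein NUF2 by 0.70, the midzone motor KIF23 by 0.86 and the mitotic kinase CDK1 by 0.61 (limma adjusted p between 1.5e-06 and 5.32e-06). CKS1B, CDC20, UBE2C and CKS2 read 0.13, -0.09, -0.05 and -0.03 and did not pass. These lists were drawn up with earlier results of the same arrays known, so their direction is no independent evidence.

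Of 3 ubiquitin ligase subunits that act in the cell cycle, CCNF (cyclin F) was higher by 0.41 after centring (limma adjusted p = 6.12e-04), and SKP2 and FZR1 read 0.05 and 0.07 and did not pass. As deposited all 3 were higher. The shares over all genes were 30.3% higher after centring and 77.2% as deposited, and for 3 genes these counts lie near those shares.

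**Figure D3:**
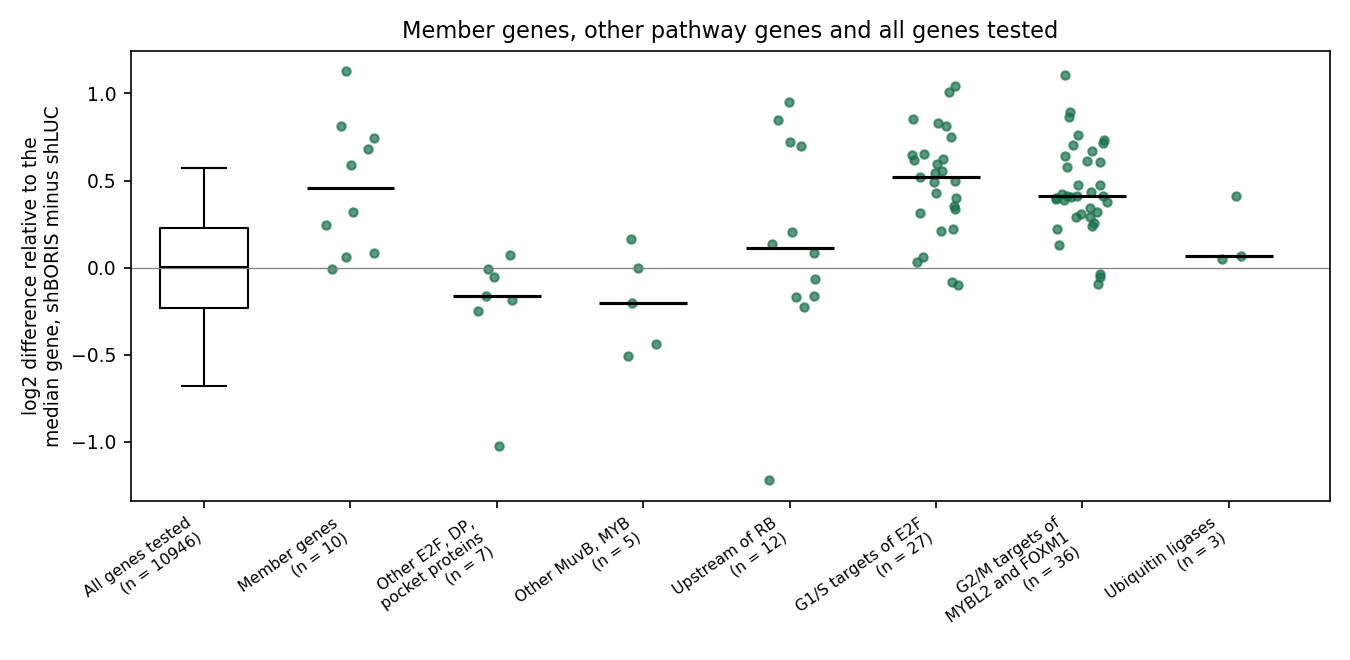
The log2 difference after centring, shBORIS minus shLUC, for all 10946 genes tested (box: quartiles and median, whiskers: 5th and 95th percentiles) and for each gene of the members and of 6 lists; black bars are medians. The members' median of 0.46 and those of the G1/S and G2/M targets, 0.52 and 0.41, sit above the box's centre, whereas those of the other E2F, DP and pocket genes (-0.16) and of the other MuvB and MYB genes (-0.20) sit below it.

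The genes with the most similar profile over the 4 arrays were found by the distance between log2 values after centring of the arrays, less the gene's own mean. Nearest to FOXM1 were DOCK10, SKA3 and SS18, at distances of 0.03, 0.05 and 0.06, and SKA3, a kinetochore protein, differed by 1.12. Nearest to MYBL2 were IPO11, FANCI and AP3B1, at 0.01, 0.02 and 0.02, and nearest to E2F1 were DOK4, DYNC1LI2 and PSMD11, at 0.02, 0.02 and 0.03. With 4 arrays in 2 groups such likeness is mostly a like difference between the groups: 40 genes lay within 0.2 of FOXM1, 621 of MYBL2 and 930 of E2F1.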

How the data were processed

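The deposited table holds probe set intensities on a linear scale from 4 Affymetrix PrimeView arrays, 1 column per array; per the labels' protocols, ERCC RNA was added and 100 ng of total RNA was labelled. The submitters' processing notes name MAS5, R 3.1.3 and affy but no roles, and the scaling between arrays was not given in the sources used here. Of 49293 probe sets left without 102 Affymetrix and 100 ERCC controls, 45278 had 1 symbol (45208 updated by Entrez identifier), 1333 several and 2682 none listed.

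Each of 18244 genes was taken by its brightest probe set; those with a mean under the 40th percentile (intensity 62.2) were dropped, leaving 10946. Log2(intensity + 16) was tested by limma 3.58.1 (R 4.3.3; hairpin as the only term, intensity trend, 2 residual degrees of freedom), as deposited and centred. P-values are two-sided, adjusted by Benjamini-Hochberg over all genes, or over all unfiltered probe sets for single probe sets. An exact permutation of 2 against 2 cannot go below 0.333. The fit after centring was tested on simulated data; that on the deposited scale was not. The number of arrays limits precision.

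Members, lists and tests were chosen with earlier results of these data known. Named genes were the members, CTCFL, the 4 smallest p of each long list, any tested gene of lists of up to 15, and the 3 nearest profiles of FOXM1, MYBL2 and E2F1; targets that did not pass were named after their values were seen. Alternatives covered normalization, pseudocount, filter, probe set choice, prior, replicate block and each array left out.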

Additional observations from a re-analysis of the deposited data

How the results depend on the processing

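With each array left out, 10 members were higher and 0 lower as deposited, 5 to 7 higher and 0 lower relative to the median gene; over all genes the counts were 7325 to 8316 higher and 351 to 507 lower as deposited, and 2839 to 3079 and 2777 to 2896 relative to the median gene. Centring on ERCC probe sets in place of the median gene gave 10 members higher, with 8233 genes higher and 592 lower. Quantile normalization in place of the deposited scale gave 6 members higher, with 2929 genes higher and 3111 lower. The 60th percentile filter gave 2202 genes higher relative to the median gene and 273 lower as deposited, with fewer genes tested, and E2F8, LIN9 and LIN54 were not tested. No filter gave 4733 genes higher and 5053 lower relative to the median gene, and 8 members higher (E2F2 and LIN54 joined). The mean of probe sets gave 1 member lower relative to the median gene, E2F2 at -0.23 (limma adjusted p = 0.03). E2F3 relative to the median gene changed sign with ERCC centring (0.43), a pseudocount of 64 (0.016), no filter (0.10), the mean of probe sets (0.10) and without shBORIS replicate 2 (0.031; range -0.051 to 0.031 with each array left out). TFDP1 did so with quantile normalization (-0.036), the 60th percentile filter (-0.01) and without shBORIS replicate 1 (-0.045) or shLUC replicate 2 (-0.004), over a range of -0.045 to 0.166, and passed with the mean of probe sets (0.138, limma adjusted p = 0.0227). As deposited, quantile normalization gave -0.093 for E2F3 and -0.036 for TFDP1. Relative to the median gene, ERCC centring, no filter and the 60th percentile filter alter only the value subtracted from each array. All members tested therefore moved alike: FOXM1 read 1.568, 1.243 and 1.057 with these settings and 1.128 in the main fit. The cause of the other changes was not tested.

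FOXM1, E2F1, E2F7, E2F8 and MYBL2 kept direction and call on both scales under each alternative that tested them. Of these, E2F8 passed the main filter only through shBORIS, where it is high. With the replicate number as a block, 7 members were higher relative to the median gene (LIN54 joined, limma adjusted p = 0.0252) and 10 as deposited. Over all genes this gave 3460 higher and 3229 lower relative to the median gene, and 7628 higher and 384 lower as deposited. Deviations of same-numbered arrays correlated at 0.098, so the numbers are not shown to pair the samples. Dim probe sets, such as those of LIN9, LIN54 and the shLUC values of E2F8, limit the sizes given.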
